A study of Rattus norvegicus with 2 samples.

Results

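Leaving out chromosome Y, the deposited table listed 17260 circular RNAs (circRNAs), of which 23 had the entry n/a in the column of host genes, and no entry was empty. These 23 are described here. They were chosen by that column alone, and the rule did not use their values. The table was deposited for a study of bone cancer pain (BCP) in rats. As the labels state, SD rats in the BCP group had live Walker256 cells, a rat mammary carcinoma line passed through ascites, injected into the marrow cavity of the tibia. The control rats received Walker256 cells that had been boiled for 20 minutes. Each group had 3 animals, killed 21 days after surgery, and ages are not given. Both groups were thus injected with tumour cells. The labels name the source once as cancer cells and once as spinal cord cells. There was 1 library per group, and whether the 3 animals were pooled is not stated, so no test between conditions was possible. Each comparison of conditions below is between 2 libraries. The exact 95% intervals of ratios reflect counting error alone. Those of shares and of the median are taken over junctions, which are not replicates of a condition.

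A circRNA forms when the spliceosome joins a downstream splice site to an upstream one, which leaves a closed loop that resists digestion by exonucleases. Most known circRNAs hold exons of a single gene, and circBase is a catalogue of those published. A back-splice junction with no host gene may lie between genes, may run across more than one gene, or may fall on sequence that the annotation does not cover. Junctions of the last kind include those on unplaced or alternate sequences, such as copies of the ribosomal DNA repeat. Junctions that run across neighbouring genes are known in human cells as read-through circRNAs. In bulk RNA, fewer cells of a type and less RNA per cell cannot be told apart.

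Depth was 159941 back-splice reads for the control library and 151685 for the BCP library. Values are given in reads and in RPM, reads scaled to the total of back-splice reads of the library. The identifiers and chromosome names in the table are human, although the labels give rat. Whether the values are those of the labelled rat samples could not be settled from the files, so control and BCP below mean the libraries so labelled. Of markers of the labelled spinal cord tissue, 1 of 15 neuronal genes (SYT1, with 0 and 2 reads in the control and the BCP library) and 1 of 10 oligodendrocyte genes (MBP, with 2 and 3 reads) hosted a circRNA. Of 7 astrocyte genes, 1 did (GJA1, with 0 and 4 reads). Of 7 genes listed for epithelium and carcinoma, 2 did (MKI67 and TOP2A, with 60 and 43 reads in sum). These 2 mark dividing cells of any type. The others of that list, EPCAM, KRT8, KRT18, KRT19 and CDH1, hosted none. No marker of microglia (7 genes) or of blood and marrow (6 genes) hosted one, and 2 of 6 endothelial markers did (FLT1 and TEK, with 17 and 20 reads in sum). Reads of circRNAs do not measure the linear mRNA of these genes. Positions are given as in the table, whose genome build is not named.

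The first question was what these 23 junctions have in common beside the missing gene name. Their ends lay far apart. The median span was 36853 bp, with quartiles of 2077 and 69413 bp, against a median of 5683.5 bp for the 16920 circRNAs with a host gene. Spans of 50 kb or more made up 9 of the 23 (39.1%, exact binomial interval 19.7 to 61.5), against 4.47% (4.16 to 4.79) of circRNAs with a host gene. These intervals did not overlap, but they treat the junctions as independent. The 23 fell into 17 separate loci, and 9 of the 23 overlapped another member or shared an end with it. A single locus on chromosome 1 held 4 of the 9 spans of 50 kb or more. A further 317 circRNAs carried only the names of small RNAs, such as snoU13 and Y_RNA, in the gene column. Their median span was 14263 bp, and 19.6% (15.3 to 24.4) had spans of 50 kb or more, an interval that overlapped that of the 23.

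The spans fell into 2 sets. Of the 23, 10 had spans under 6 kb and 13 had spans of 19.1 kb or more. None lay between these bounds. The shortest was a junction of 204 bp on chromosome 17 (1244080 to 1244283), followed by 296 bp and 448 bp on the unplaced sequence chrUn_gl000220. The longest was 181886 bp on chromosome 8 (145331100 to 145512985), followed by 161509 bp on chromosome 16 and 121417 bp on chromosome 17. The longest span of the whole table was 197522 bp.

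**Figure D1:**
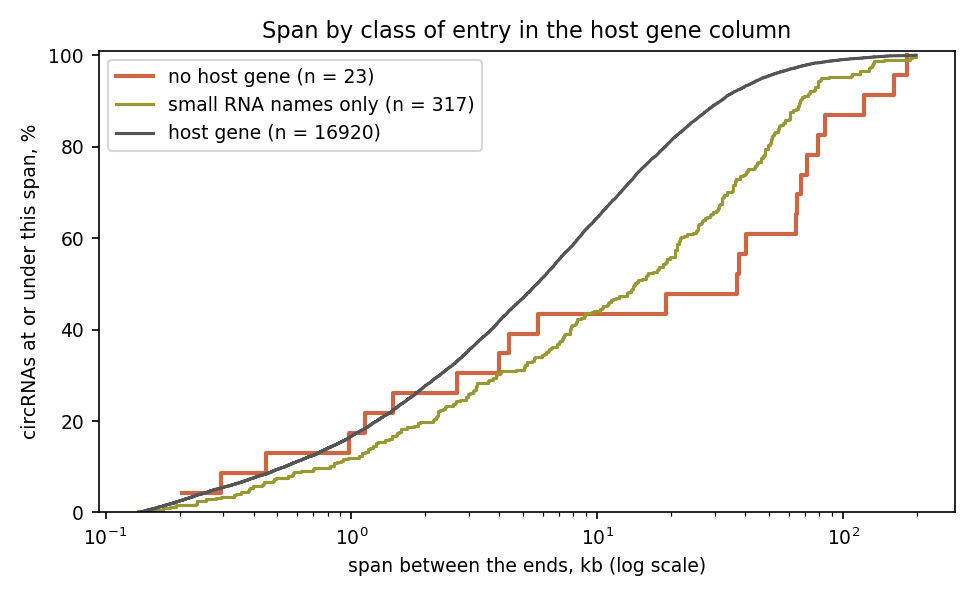
Cumulative share of circRNAs (vertical axis, %) by the span between their ends (horizontal axis, kb, log scale) for the 23 with no host gene, the 317 with small RNA names only and the 16920 with a host gene. The line of the 23 is flat between about 6 and 19 kb and ends to the right of the other lines, with a median of 36853 bp.

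The name of the group, circRNAs outside annotated genes, did not hold for 11 of the 23. These 11 overlapped at least 1 circRNA that the same table assigns to a host gene (47.8%, 26.8 to 69.4). All 11 were among the 13 with long spans, and none of the 10 short ones overlapped such a circRNA. Overlap with genes that host no listed circRNA was not tested, so whether the name holds for the rest is not known. None of the 23 lay inside a circRNA of a host gene. Each of the 11 instead enclosed at least 1 of them. For 6 of the 23 (26.1%, 10.2 to 48.4), one or both ends were at the same base as an end of a circRNA with a host gene. Among the 317 with small RNA names only, 100 overlapped a circRNA of a host gene (31.5%, 26.5 to 37.0) and 60 shared an end with one (18.9%, 14.8 to 23.7). The intervals of the 2 groups overlapped for both shares.

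Of the 23, 19 lay on 8 whole chromosomes, 3 on chrUn_gl000220 and 1 on chr17_ctg5_hap1, an alternate sequence. Chromosome 1 held 8 of them, chromosomes 16 and 17 held 3 each, and chromosomes 8, 10, 19, 21 and X held 1 each. They were gathered at the ends of the chromosomes. Measured from the first start and the last end of all circRNAs that the table lists for a chromosome, 18 of 19 lay within 2 Mb of an end (94.7%, 74.0 to 99.9) and 15 within 1 Mb. The median distance was 0.751 Mb, against 27.9 Mb for circRNAs with a host gene, of which 7.15% (6.76 to 7.54) lay within 2 Mb. For the circRNAs with small RNA names only, 2.21% (0.892 to 4.50) did. Of the 18, 13 were at the low end of the chromosome and 5 at the high end. The 18 were not independent, since a locus of chromosome 1 held 4 of them and another held 3. In 3 cases the junction was itself the outermost of its chromosome, so that its distance is 0 by construction. These were the 4372 bp junction on chromosome 1, the 5766 bp junction on chromosome 16 and the 161509 bp junction on chromosome 16.

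The exception was the junction on chromosome 10 (4872867 to 4951798), which lay 4647 kb from the first listed start. On each of these chromosomes a range was taken from the first to the last circRNA that carries a small RNA name. On chromosome 1 this range ran from 6880241 to 247323115. All 19 junctions lay beyond the outermost small RNA names of their chromosome. In this outer zone the table listed 1580 circRNAs, of which 1561 had a host gene and 1.20% had none. Between the outermost small RNA names it listed 15676 circRNAs. Of those, 317 had small RNA names alone, and none had the entry n/a. The 317 lie there by construction, since such entries set the range. An entry with a small RNA name cannot be n/a, so both kinds of entry come from the same column, and how the authors filled it was not tested.

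**Figure D2:**
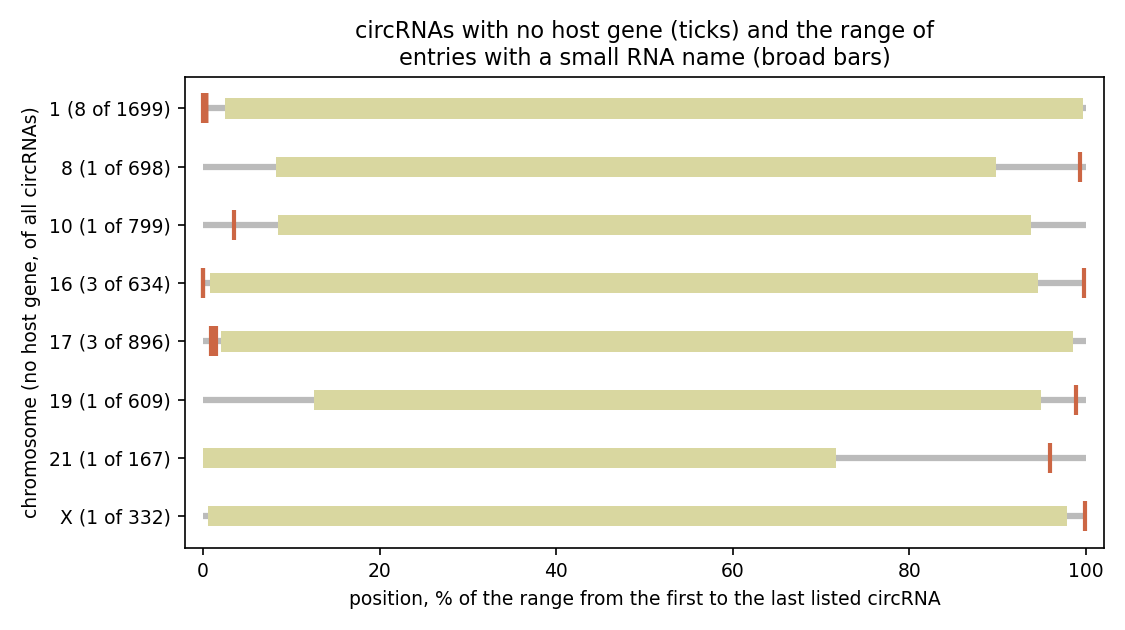
Position of the 19 circRNAs with no host gene on whole chromosomes (ticks), as a percentage of the range from the first to the last listed circRNA (horizontal axis) for each chromosome (vertical axis, with the number with no host gene and the number of all circRNAs). Broad bars show the range of entries with a small RNA name, and every tick lies outside its bar.

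The 23 junctions held few reads. They took 64 control reads and 151 BCP reads, which is 0.0400% and 0.0995% of the library totals. The median was 3 reads over both libraries, and 14 of the 23 had 5 or fewer. In the deposited values, 2 reads, the lowest number listed, stand for 12.505 RPM in the control and 13.185 RPM in the BCP library. The table listed 11 of them for the control and 18 for the BCP library. Both libraries shared 6 (26.1%, 10.2 to 48.4), against 42.3% (41.5 to 43.0) of circRNAs with a host gene. The interval of the 23 includes that share. For circRNAs with small RNA names only it was 24.9% (20.3 to 30.1). A further 12 of the 23 were listed for the BCP library only and 5 for the control only. Of the 317 with small RNA names only, 149 were listed for the BCP library only and 89 for the control only. Over all circRNAs, 29.4% were listed for the BCP library only and 28.6% for the control only.

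A circRNA with 10 or more reads over both libraries was called higher or lower at a ratio of 2, with 0.5 reads added to each library. Of the 23, 7 had 10 or more reads. Of these, 3 were higher in the BCP library, 1 was lower and 3 were between. Over all 5415 circRNAs with 10 or more reads, 17.3% were higher and 17.0% lower, which is 34.3% in either direction. The median log2 ratio of the 7 was 0.26, against -0.0037 over all 5415. Its interval of -4.45 to 6.73 is the whole range of the 7 and covers both signs. The share called among the 7, 57.1%, had an interval of 18.4 to 90.1 that includes the 34.3% of the background. Of the 4 calls, 3 rest on a junction that is not listed for the other library. Over all circRNAs with 10 or more reads, 5.63% were listed for 1 library only. Since the lowest listed value is 2 reads, a junction that is not listed may still have had 1, and no fold is given for these.

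**Figure D3:**
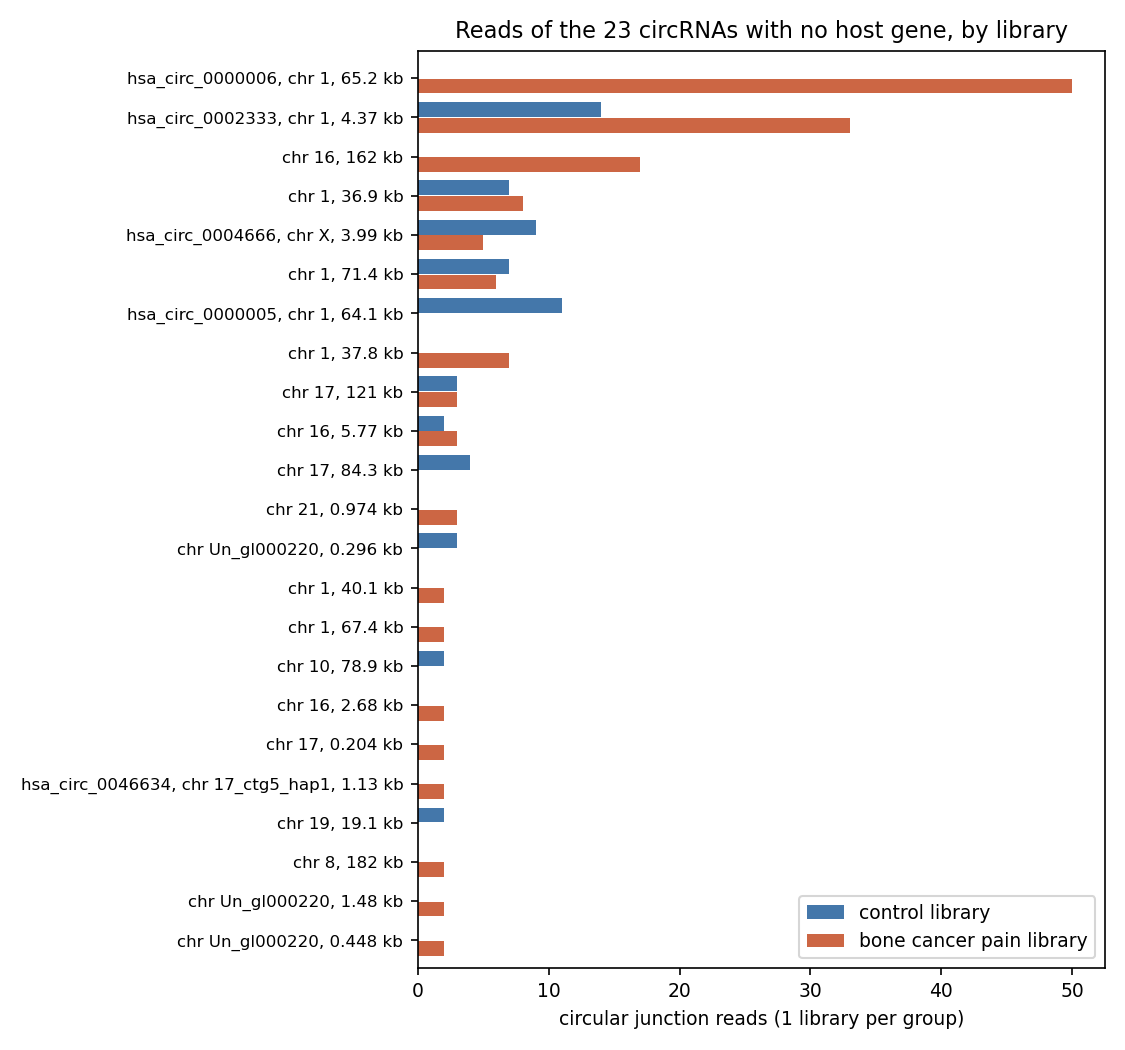
Circular junction reads (horizontal axis) of each of the 23 circRNAs with no host gene in the control and the BCP library, 1 library each, in order of total reads. Labels give the circBase identifier where there is one, the chromosome and the span in kb. The 2 longest bars, of 50 and 33 reads, are both of the BCP library, and most other bars hold 2 or 3 reads.

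Summed over the 23, the ratio of the BCP to the control library was 2.49 (1.85 to 3.39). A pair of junctions, those with 50 and 33 BCP reads, held 83 of the 151 reads. Without the first the ratio was 1.66 (1.20 to 2.31), and without both it was 1.43 (0.98 to 2.11), an interval that includes 1. Over the 6 listed in both libraries it was 1.46 (0.96 to 2.22). The 317 circRNAs with small RNA names only had 1086 control and 1654 BCP reads (ratio 1.61, 1.49 to 1.74; 1.52, 1.40 to 1.65, without the one with the most reads). For circRNAs with a host gene the ratio was 0.995 (0.988 to 1.00). The 13 long spans had 36 and 97 reads (2.84, 1.92 to 4.29) and the 10 short spans 28 and 54 (2.03, 1.27 to 3.33), and these intervals overlapped. The same pair of junctions carried both sums, with 50 of the 97 BCP reads of the long spans and 33 of the 54 of the short. These ratios therefore do not show that either set was higher as a whole.

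The locus with the most reads lay on chromosome 1 from 1586823 to 1671143. It held 4 junctions, all with spans of 64.1 to 71.4 kb, over circRNAs that the table assigns to CDK11B, CDK11A and SLC35E2. CDK11B and CDK11A encode near-identical cyclin-dependent kinases that act in transcription and splicing, and their genes are neighbouring copies in the human genome. Where copies are this alike, the placement of reads on one or the other is uncertain, and it was not tested for these 4 junctions. SLC35E2 encodes a protein of the solute carrier family and has a neighbouring copy there as well. In the rat gene table (assembly GRCr8), CDK11B matched 1 gene, Cdk11b, and SLC35E2 matched 1 as an older name, Slc35e2b, both on chromosome 5. CDK11A, ATAD3B and AFG3L1P had no match by name.

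The first of the 4 was hsa_circ_0000006 (chromosome 1, 1601103 to 1666274, 65172 bp). It had no listed value in the control library and 50 reads, or 329.63 RPM, in the BCP library. No other circRNA among the 5082 listed for the BCP library only had as many reads, and the next, of the kinetochore gene SPC24, had 45. Another, hsa_circ_0000005 (1586823 to 1650894, 64072 bp), went the opposite way, with 11 reads, or 68.775 RPM, in the control and none listed in the BCP library. Its rank by reads was 89 among the 4938 circRNAs listed for the control only, a place shared by 29.

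The start of hsa_circ_0000005 was at the same base as the start of a CDK11B circRNA (1586823 to 1588948), and its end was at the same base as the end of a CDK11A circRNA (1647785 to 1650894). It therefore joined ends that the table also lists for circRNAs of both genes. Each of those had no listed control reads and 2 BCP reads, unlike the junction between them. A junction of 67448 bp shared the start at 1586823 and ended at 1654270, 3376 bp beyond the end of hsa_circ_0000005. It had 2 reads in the BCP library only.

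The remaining junction at this locus (1599766 to 1671143, 71378 bp) had 7 control and 6 BCP reads, or 43.766 and 39.556 RPM, and the libraries did not differ beyond counting error (ratio 0.90, 0.25 to 3.14). Its end was the end of hsa_circ_0009314 of SLC35E2 (1666129 to 1671143), which had 3 and 9 reads. Its start lay 1337 bp before that of hsa_circ_0000006 and its end 4869 bp after. The 4 junctions together had 18 and 58 reads (3.40, 1.97 to 6.13). The 4 circRNAs with a host gene at this locus had 5 and 13 reads (2.74, 0.92 to 9.82). Junctions with no host gene thus held more reads here than those named for a gene, in both libraries. However, hsa_circ_0000006 alone held 50 of their 58 reads in the BCP library and none of the 18 in the control. The ratio of 3.40 therefore does not describe the other junctions. Of those, hsa_circ_0000005 went the opposite way (11 and 0 reads), and the 71378 bp junction had 7 and 6 reads.

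**Figure D4:**
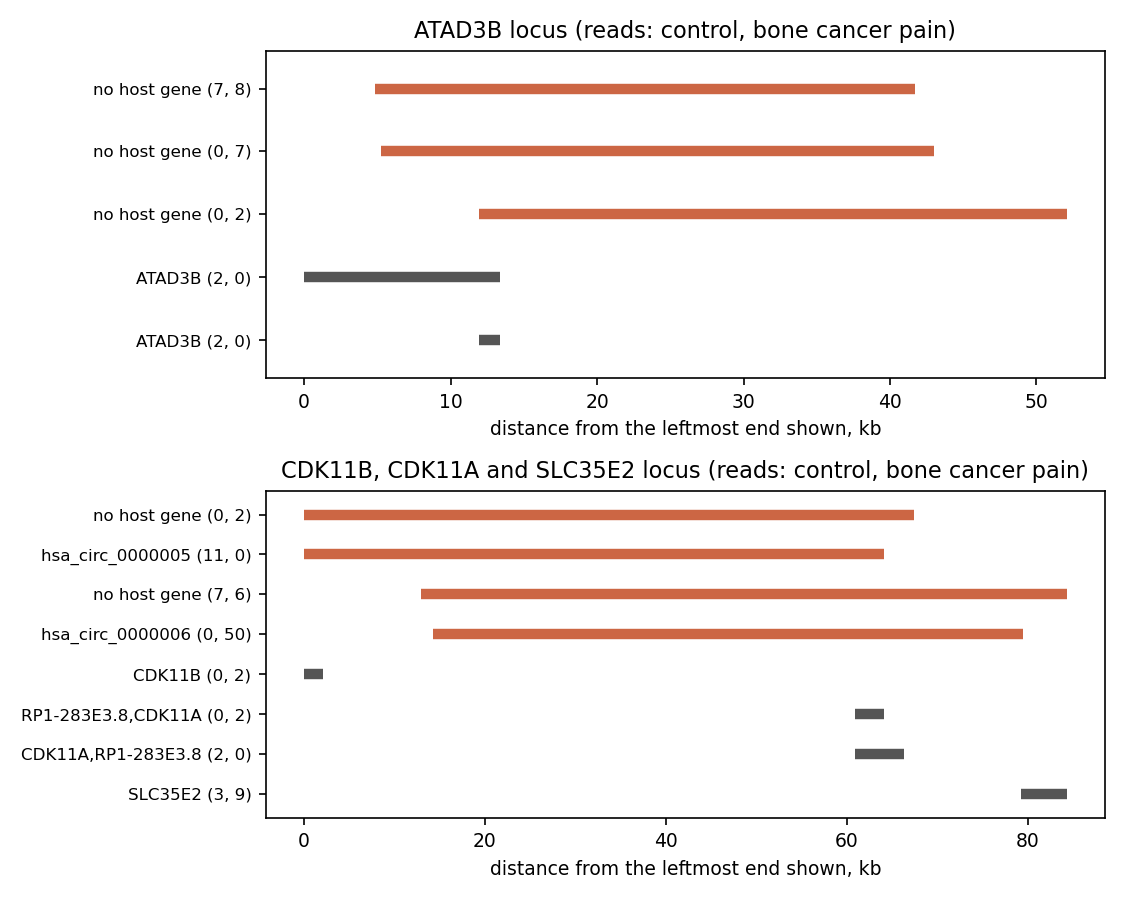
Spans of the circRNAs with no host gene (upper bars of each panel) and of the overlapping circRNAs with a host gene (lower, dark bars) at 2 loci of chromosome 1, with the distance from the leftmost end in kb on the horizontal axis. Reads in the control and the BCP library stand in brackets. In the lower panel hsa_circ_0000005 runs from the CDK11B to the CDK11A circRNA, and hsa_circ_0000006 lies 14280 bp further on at its start.

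A second group of 3 overlapping junctions lay on chromosome 1 from 1417518 to 1464711, over circRNAs of ATAD3B. ATAD3B encodes an ATPase of the mitochondrial inner membrane and is one of several similar neighbouring copies in the human genome, and the placement of reads among the copies was not tested here either. The junction from 1417518 to 1454370 (36853 bp) had 7 control and 8 BCP reads, or 43.766 and 52.741 RPM (1.21, 0.38 to 3.90). The junction from 1417925 to 1455686 (37762 bp) had none listed in the control and 7 in the BCP library. The starts of these 2 were 407 bp apart and their ends 1316 bp apart. The third, from 1424584 to 1464711 (40128 bp), had 2 reads in the BCP library only, and it started at the same base as hsa_circ_0009287 of ATAD3B (1424584 to 1426051). Both ATAD3B circRNAs at the locus had 2 control reads and none listed in the BCP library. The 3 junctions together had 7 and 17 reads (2.56, 1.01 to 7.30).

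The other junction of chromosome 1, hsa_circ_0002333 (741179 to 745550, 4372 bp), was the first listed on that chromosome. It overlapped no circRNA of a host gene, and the nearest, of SAMD11, was 125.6 kb away. It had 14 control reads, or 87.532 RPM, and 33 BCP reads, or 217.556 RPM. The BCP library was higher, at a ratio of 2.49 (1.29 to 5.03), an interval that excludes 1. Of the 7 junctions with 10 or more reads, it was the only one listed in both libraries that passed 2-fold. It was also the one of the 23 with the most control reads.

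On chromosome 16, a junction of 161509 bp (89998979 to 90160487) was listed for the BCP library only, with 17 reads or 112.074 RPM. It enclosed 3 circRNAs of AFG3L1P, a pseudogene related to a mitochondrial protease, which had 5 and 7 reads in sum (1.48, 0.40 to 5.90). It shared no end with them. The AFG3L1P circRNA from 90045218 to 90046744 had none listed in the control and 7 in the BCP library, and the other AFG3L1P circRNAs had 3 and 2 control reads and none listed in the BCP library. At the opposite end of the chromosome, a junction from 88210 to 93975 had 2 and 3 reads, and one from 101558 to 104233 had 2 in the BCP library only. The nearest circRNAs of a host gene were those of NPRL3, a subunit of the GATOR1 complex that restrains mTORC1, at 48.6 and 38.4 kb.

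On chromosome 17, the junction from 882559 to 1003975 (121417 bp) had 3 reads in each library. It ended at the same base as 4 circRNAs of ABR and enclosed hsa_circ_0001967 of TIMM22, a carrier translocase of the mitochondrial inner membrane. The most abundant of the ABR circRNAs, hsa_circ_0007919, had 4 and 9 reads. The 5 circRNAs of ABR and TIMM22 enclosed by the junction had 8 and 20 reads in sum (2.64, 1.11 to 6.92), while the junction itself had a ratio of 1.05 (0.14 to 7.87). The junction from 1303341 to 1387597 (84257 bp) had 4 control reads and none listed in the BCP library. It enclosed circRNAs of CRK, a signalling adaptor, and of MYO1C, an unconventional myosin, and shared no end with them. These 4 circRNAs had 21 and 11 reads (0.55, 0.24 to 1.20), of which hsa_circ_0002637 of MYO1C had 14 and 2. The short junction from 1244080 to 1244283 had 2 reads in the BCP library and lay 13.2 kb from a circRNA of YWHAE, the 14-3-3 epsilon gene. ABR, TIMM22, CRK and YWHAE each matched 1 gene of that name in the rat gene table, and all 4 are on rat chromosome 10, while the deposited table places them on 17.

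On chromosome X, hsa_circ_0004666 (154645236 to 154649223, 3988 bp) had 9 control and 5 BCP reads, or 56.271 and 32.963 RPM. The libraries did not differ beyond counting error (0.59, 0.15 to 1.95). It lay 87.3 kb from the nearest circRNA of a host gene, that of the carnitine synthesis enzyme TMLHE. On chromosome 10, the junction of 78932 bp had 2 control reads and started at the same base as hsa_circ_0017521 of AKR1E2, an aldo-keto reductase, which had 2 BCP reads and none listed in the control. The junction on chromosome 19 (58262153 to 58281246, 19094 bp) had 2 control reads and lay 6.67 kb from a circRNA of the zinc finger gene ZNF586. It was one of the 2 long spans that overlapped no circRNA of a host gene. The other was the 181886 bp junction on chromosome 8, which had 2 BCP reads and lay 67.3 kb from a circRNA of FBXL6. The junction on chromosome 21 (46730371 to 46731344, 974 bp) had 3 BCP reads and lay 28.0 kb from a circRNA of the fucosyltransferase gene POFUT2.

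The 3 junctions on chrUn_gl000220, a sequence of the human reference that carries ribosomal DNA, had 3 control and 4 BCP reads in all. The junction from 118041 to 118336 had the 3 control reads. The junctions from 121605 to 123082 and from 122635 to 123082 had 2 BCP reads each and shared their end. The control and the BCP library thus listed different junctions there. Ribosomal RNA had been depleted from the RNA before sequencing, per the labels' protocols. On chr17_ctg5_hap1, hsa_circ_0046634 (723025 to 724155, 1131 bp) had 2 BCP reads. The table listed no circRNA of a host gene on either sequence.

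Of the 23, 5 carried a circBase identifier (21.7%, 7.46 to 43.7), against 54.7% (54.0 to 55.5) of circRNAs with a host gene and 14.8% (11.1 to 19.2) of those with small RNA names only. The interval of the 23 overlapped that of the circRNAs with small RNA names only and not that of the circRNAs with a host gene. The 5 were hsa_circ_0000006, hsa_circ_0000005, hsa_circ_0002333, hsa_circ_0004666 and hsa_circ_0046634. They held most of the reads, with 34 of 64 in the control (53.1%) and 90 of 151 in the BCP library (59.6%). Of the 7 junctions with 10 or more reads, 4 were in circBase (57.1%, 18.4 to 90.1). The share of other circRNAs at that minimum was not computed. The 54.7% has no read minimum, so the classes were not matched for reads. The 4 in circBase with 10 or more reads did not move alike: hsa_circ_0000006 was listed for the BCP library only, hsa_circ_0000005 for the control only, hsa_circ_0002333 was higher in the BCP library, and hsa_circ_0004666 was between.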

How the data were processed

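Total RNA was depleted of ribosomal RNA, digested with 16 units of RNase R, which removes linear RNA, for 15 minutes at 37 °C, and sequenced, per the labels' protocols. CASAVA 1.8, BWA and rn6 are named in the submitters' processing notes with no role. For the circRNA caller and annotation, nothing is stated in the sources used here. The deposited values are headed TPM but were read as RPM, since both columns sum to nearly the same total and 100% of listed values are whole multiples of 1 step per library (within 0.01 reads). Dividing by the step gave reads, and the placeholder 0.001 was taken as 0. Library totals were taken before chromosome Y was left out.

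Rows with n/a or no entry as gene were selected, and spans count both ends. Ratios of library shares have exact conditional binomial (Clopper-Pearson) 95% intervals, and shares have exact binomial ones. The intervals of ratios cover counting error only, and PCR copies are not independent molecules. The intervals of shares and of the median are taken over junctions and treat overlapping junctions as independent. Small RNA names were those of small nucleolar, Cajal body, Y, U, vault, 5S ribosomal and signal recognition particle RNAs. The 2-fold call was tested on simulated counts. The text names the junctions richest in reads, of the highest and lowest ratios, of the shortest and longest spans, those in circBase, on unplaced sequences or in overlapping groups, and, beyond that rule, the rest of the 23. The rule that picks the members uses the gene column alone, but it and the lists were chosen with earlier results of these data known. Other settings were read minimums, reads added, ratios, scalings and subsets of members. Sequences were not used here. Computation used Python 3.11.15 (scipy 1.17.1, numpy 2.4.6, pandas 2.3.3) and figures matplotlib 3.10.9.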

Additional observations from a re-analysis of the deposited data

How the results depend on the processing

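The 4 calls past 2-fold (3 higher and 1 lower) became 2 (both higher) with a minimum of 20 reads and 1 with 2 or more reads listed in each library, where fewer junctions could be called. The count was 4 or 5 with a ratio of 1.5, a minimum of 5 reads, an interval that leaves out 1, 2 reads added, and both other scalings (median of ratios, which shifts log2 ratios by -0.08, and TMM, by 0.002). The ratio of summed reads, 2.49, fell outside its interval of 1.85 to 3.39 without the junction with the most reads (1.66) and over junctions listed in both libraries (1.46). Chosen after seeing the data, leaving out the 2 junctions with the most reads gave 1.43, and leaving out the 4 at CDK11B and CDK11A gave 2.13. It stayed above 1 under every alternative run, though the intervals for 1.46 and 1.43 include 1. The circBase share of 21.7% was 57.1% among the 7 junctions with 10 or more reads, with no share of other circRNAs computed at that minimum. The median log2 ratio of 0.26 stayed positive under all 5 alternatives but ran from 0.18 to 4.01, the last over the 2 junctions with 20 or more reads. Its main interval of -4.45 to 6.73 is the range of the 7 junctions. These are not replicates, so it gives no direction between the conditions. The median span of 36853 bp ran from 4372 bp (circBase only) to 64072 bp (10 or more reads), within its interval. No paired analysis was possible because each group had 1 library. Depth limits these results, since 16 of the 23 junctions had fewer than 10 reads.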
